A study of Mus musculus with 24 samples.

Results

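Module M[3] is a group of 91 transcripts of the mouse heart that the study chose by its own measurements. Transcripts with a change over time after surgery were first selected by DESeq2, and those whose levels moved together over the same samples were then joined into modules by weighted co-expression analysis. All 91 members, of 63758 transcripts listed, were found by their UCSC identifier, and all 91 were among the 8940 transcripts with enough counts to be tested. Because the members were chosen by a change over time and by their correlation in these 24 samples, their lower level at 24 h and their common course are given here as a description.

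The samples were left ventricular myocardium of young adult male C57BL/6J mice (C57BL/6 in the labels) with no genetic change, with 8 mice taken right after the operation (0 min), 8 at 45 min and 8 at 24 h, and every mouse gave 1 library of poly(A) RNA. Every mouse, those at 0 min included, had been anesthetized, ventilated and operated on, with the chest opened and a suture passed beneath a coronary artery but left untied. In the 24 h group the chest was closed after 45 min. Mice without surgery, the surgeon and the library pool were not analysed here, so that effects of these cannot be told apart from time.

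The adult heart draws most of its energy from mitochondria, where the respiratory chain passes electrons to oxygen and carriers of the inner membrane exchange metabolites with the cytosol. Glycolysis and the creatine kinase system add to this supply. Contraction is set off by calcium from the sarcoplasmic reticulum, a membrane store kept in shape by muscle proteins, and sympathetic nerves set its strength through noradrenaline. By known function, 14 of the members are mitochondrial, 17 belong to other metabolism, 22 are characteristic of striated muscle, 19 are signalling, membrane or matrix genes and 19 are other or little known.

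The libraries held 9887957 to 14091629 counts, and 12972 to 18865 transcripts were detected with at least 1 count. At 0 min the mean number detected was 16403 ± 1408 (SD, n = 8), against 16162 ± 2100 for the 45 min mice and 17770 ± 1008 for the 24 h mice. The difference of 1368 between 24 h and 0 min did not pass the adjustment over 3 pairs of time points (two-sided exact permutation test, p = 0.0438, adjusted p = 0.116). At 45 min the samples fell into separate clusters, with replicates 6, 7 and 8 between 12972 and 14353 transcripts and the other 5 between 17114 and 18109. The TMM factors, by which edgeR scales the libraries, were 0.729, 0.798 and 0.744 in these 3 libraries and 0.923 to 1.30 at 24 h.

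The level of the module in a sample was taken as the mean over the 91 members of log2(CPM + 0.5), each centred on its mean over 24 samples, where CPM are library-scaled counts that include the TMM factor. The lowest, median and highest level were -0.26, 0.16 and 0.88 at 0 min, -0.20, 0.02 and 1.28 at 45 min, and -0.84, -0.74 and 0.26 at 24 h. Of the 8 samples at 24 h, 7 lay below every sample of the other time points, and replicate 4 lay among them. This sample had 15753 transcripts detected, the fewest at 24 h. At 45 min, replicates 6, 7 and 8 were highest, with levels of 0.85 to 1.28, and the other 5 lay between -0.20 (replicate 1) and 0.02. At 0 min, replicate 5 was highest, with 14778 transcripts detected, while replicate 7, with fewer (14597), was at 0.16, and replicate 8, with 15791, was at -0.10.

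**Figure D1:**
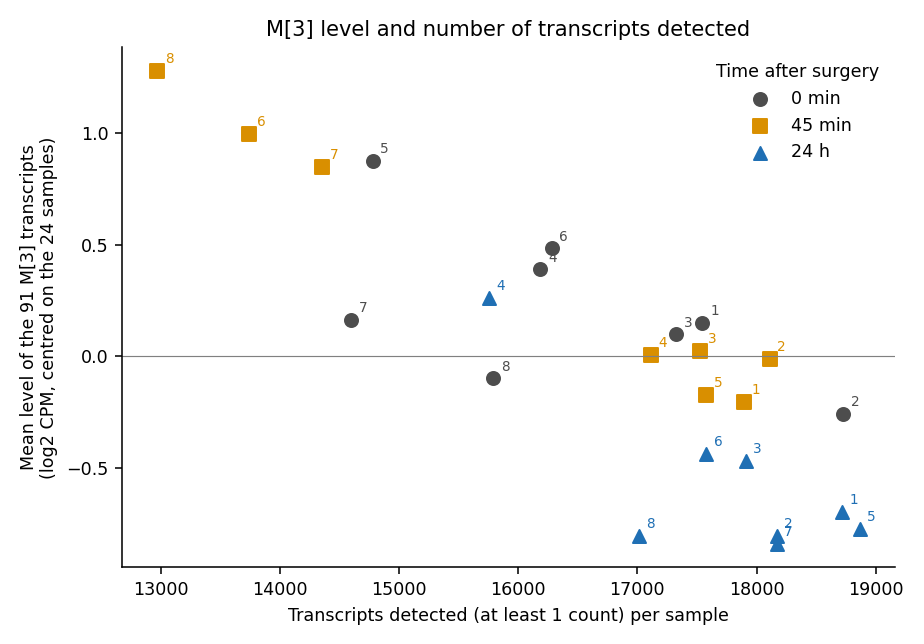
Mean level of the 91 M[3] transcripts (log2 CPM, centred on the 24 samples) against the number of transcripts with at least 1 count, 1 point per sample, labelled with its replicate number, with shape and color for time after surgery. The 3 samples with the fewest transcripts, at 45 min, had levels of 0.85 to 1.28, but at 0 min replicates 7 (0.16) and 8 (-0.10) had few transcripts without a high level, and 7 of the 8 samples at 24 h lay between -0.84 and -0.44, below every sample of the other time points.

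All 91 members had a negative log2 fold change at 24 h against 0 min in a model with time alone, between -2.53 (Dbh) and -0.28 (Tmem109), with a median of -0.75. The median of all transcripts tested was 0.0033. edgeR's quasi-likelihood test called 39 members lower and 0 higher at an adjusted p threshold of 0.05. DESeq2 called 45 members and 366 of all 8940 transcripts lower. Of all transcripts tested, 3.24% were called lower, but the choice of members used this contrast. The count rested on single mice. It was 67 without replicate 4 at 24 h, where 508 of all 9091 transcripts were called lower. Without replicate 1, 3, 4, 5, 6 or 7 at 0 min it was 15 to 23 (232 to 251 of all 9084 to 9117). Without replicate 1, 2, 3, 5 or 7 at 24 h it was 18 to 24 (232 to 287 of all 9042 to 9074). Without the 3 samples at 45 min with few transcripts it was 72 (485 of all 9516).

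At 45 min the median log2 fold change against 0 min was 0.18, and 80 members were higher and 11 lower, between -0.25 and 1.25 (Rgcc). edgeR called 0 of the 91 in either direction, against 0.727% of all transcripts. Against 45 min, 80 members were called lower at 24 h (4.51% of all transcripts), with a median of -0.99. The comparisons share samples, and the high group at 45 min consisted of 3 of its 8 libraries.

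The trend with the number of transcripts detected was then separated from time, by a model that holds both. Within time points, the level of all 91 members was lower where more transcripts were detected, with a median slope of -0.26 on the log2 scale per 1000 transcripts and a range of -0.54 to -0.12. The median over all transcripts was 0.031. All 91 slopes were called by edgeR's test, while 27.8% of all transcripts were called with a slope in this direction. The members were more abundant, with a median of the mean CPM of 36.3 against 7.28 for all transcripts, and no match for abundance was made. Without the 3 samples at 45 min with few transcripts, the count was 70 (1543 of all 9516 transcripts). It was 53 with only the 0 min and 24 h samples (1128 of all 8474). With only samples of at least 15000 transcripts it was 44 (1137 of all 9430). The number detected was not used to choose the members, but it is computed from the same counts. With a separate slope for each time point, the median was -0.16 in the 0 min samples and -0.28 in both later groups, and 90, 91 and 91 members had a negative slope. The test called 4 of these at 0 min (0.984% of all transcripts), 91 at 45 min (25.6%) and 28 at 24 h (8.85%). The slope at 45 min rests on the contrast of the 3 samples with few transcripts and the other 5. The difference between these slopes was not tested.

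At equal numbers of transcripts detected, 90 of the 91 members were still lower at 24 h than at 0 min, between -1.99 (Dbh) and -0.11 (Tmem109), and Rgcc had a log2 fold change of 0.054. The median was -0.41, against -0.025 for all transcripts. On the linear scale, the median member stood at 0.594 of its 0 min level with time alone and at 0.754 with the number detected in the model. edgeR called 29 members lower (5.21% of all transcripts), of which 28 were also called with time alone and 1, Itgb1bp2, was not. The 11 that were called with time alone only were Slc25a11, Abcb8, Them6, Phkg1, Tmem86a, Tecr, Rhob, Vstm4, Smoc2, Cxx1a and 2310039L15Rik. The count was 18 without replicate 2 at 0 min (323 of all 9062 transcripts). With the number of transcripts of at least 10 counts it was 10 (355 of all 8940), and with a slope for each time point 8 (159 of all 8940). It was 76 with the share of the 20 most abundant transcripts in place of the number detected (436 of all 8940). With that share, edgeR called 0 of the 91 slopes and 0 of all 8940 as negative. Of the 91, 69 had a negative slope at an unadjusted p under 0.05, but the share of all transcripts at that threshold was not computed.

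**Figure D2:**
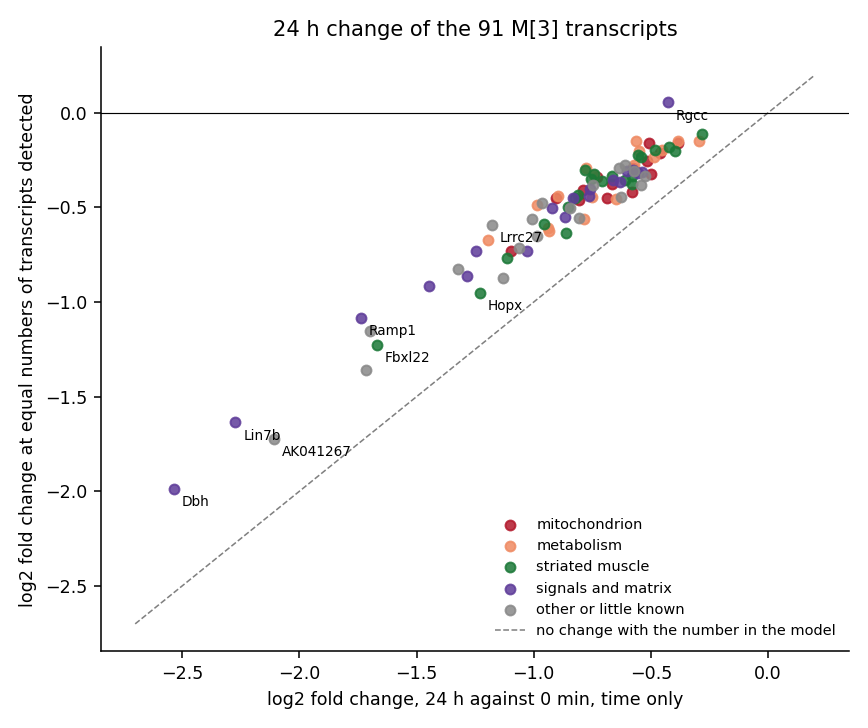
Log2 fold change of each of the 91 M[3] transcripts at 24 h against 0 min, with time alone (horizontal) and at equal numbers of transcripts detected (vertical), colored by function, with the dashed line at equal values. All 91 points lie above the line, by 0.15 to 0.65, and all but Rgcc lie below 0.

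As a description without a model, levels were also compared in the 15 samples that had at least 17000 transcripts detected, a limit chosen after the values had been seen. In these the level was -0.26 to 0.15 at 0 min (3 samples), -0.20 to 0.02 at 45 min (5 samples) and -0.84 to -0.44 at 24 h (7 samples). The 24 h samples lay below all others, while the 45 min range lay within that of 0 min. The median number of transcripts was 17545, 17579 and 18168, so the numbers detected were not equal between time points. The members had also been chosen by their change over time in these samples. Over the members, the difference between the median of the 24 h samples and that of the others was -2.30 to -0.26 on the log2 scale, with a median of -0.60, and the median of all transcripts was -0.0026. For 18 members every 24 h sample lay below every other sample (1.55% of all transcripts).

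Time alone accounted for 48.0% of the variation of the module's level over 24 samples, the number detected alone for 73.5% and both for 86.1%. Without the 3 low samples at 45 min, the shares were 57.7%, 52.1% and 76.4%. The level at 24 h was 0.80 below that at 0 min as a group mean, with -0.57 ± 0.37 (SD, n = 8) at 24 h and 0.23 ± 0.36 at 0 min. Its difference at equal numbers detected was -0.46 over all samples and -0.53 without the 3. As a description, Pearson's r between the level and the number detected was -0.61 over the 8 samples at 0 min (Spearman's rho -0.52) and -0.79 over the 8 at 24 h (rho -0.38). Without the 2 samples farthest from the median number, r was -0.62 at 0 min and -0.65 at 24 h. At 45 min no r is given, because the samples form separate clusters.

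The members kept together within samples of a time point, but the study had joined them by their correlation over these same samples. The mean Pearson's r over pairs of members was 0.766 after removal of the time point means and 0.481 after removal of the number detected as well. A member's r with the mean of the other members was 0.774 to 0.982. The lowest were Asb10 (uc057btj.1, 0.774), Slc25a29 (0.816) and AK085995 (0.831). Of the 8940 transcripts tested, 955 non-members had a higher r than the lowest member. Of these, 66 had been placed in module M[2], and the others were not among the transcripts that the study listed as changed. The 5 non-members with the highest r, among them uc008erz.2 and uc007qha.2, whose gene names the files do not pair, had r of 0.963 to 0.980, log2 fold changes of -0.82 to -0.47 at 24 h and slopes of -0.38 to -0.24.

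**Figure D3:**
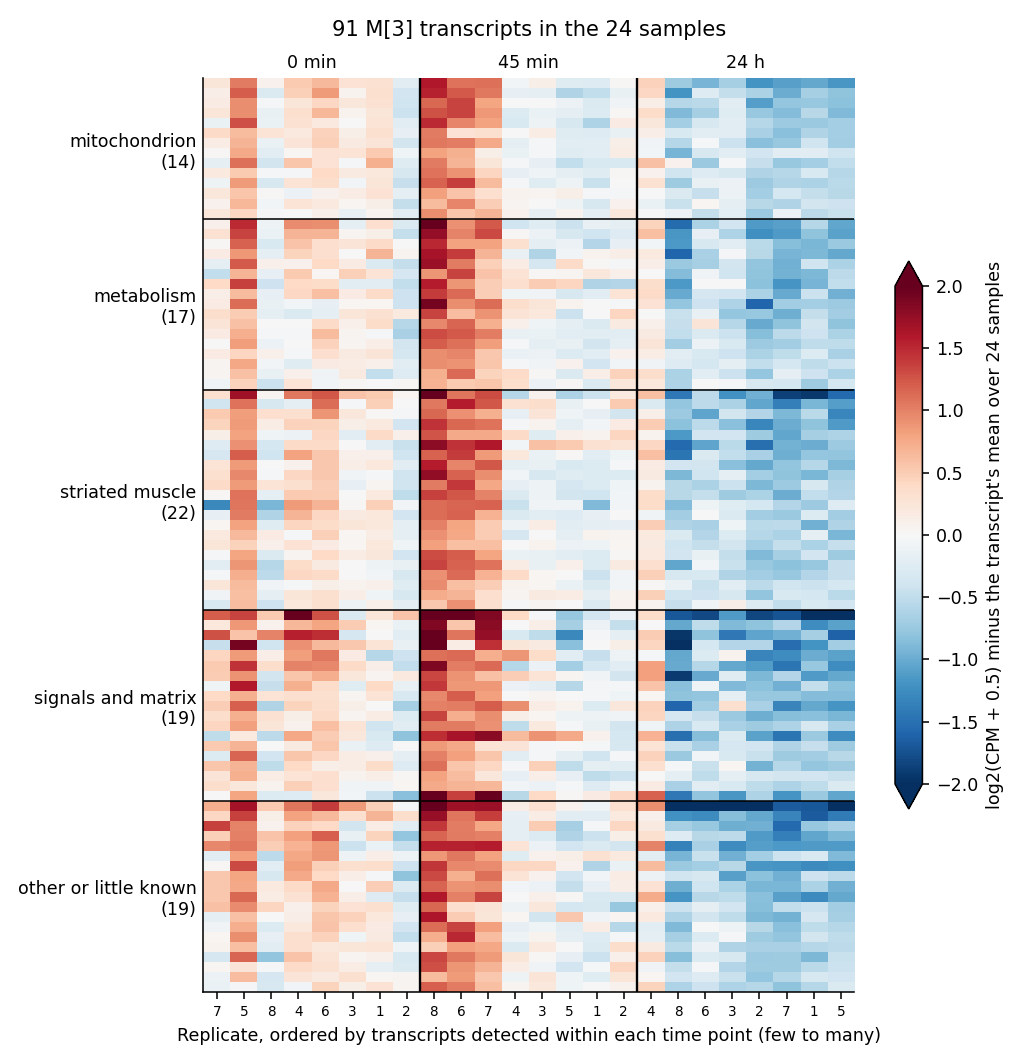
Level of the 91 M[3] transcripts in the 24 samples, as log2(CPM + 0.5) minus the transcript's mean (color, cut at 2 and -2), with members grouped by function and samples ordered within each time point from few to many transcripts detected. The libraries that stand out run through all 5 groups: replicate 5 at 0 min and replicates 6, 7 and 8 at 45 min are high, and replicate 4 at 24 h is higher than the other 7 of its time point.

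Among the 14 mitochondrial members, the median log2 fold change at 24 h was -0.62 with time alone and -0.36 at equal numbers detected, and 6 and 4 were called lower. From here on, 3 CPM values are the lowest, median and highest of 8 samples, and differences are log2 fold changes of 24 h against 0 min ± SE, first with time alone and then at equal numbers detected. Uqcrfs1, the Rieske iron-sulfur subunit of respiratory complex III, had 632, 896 and 1126 CPM at 0 min, 664, 772 and 1671 at 45 min, and 516, 614 and 830.5 at 24 h. Its values at 24 h overlapped those at 0 min, and its log2 fold change was -0.52 ± 0.19 (SE), or -0.26 ± 0.12 at equal numbers detected, with neither called. Slc25a11, the carrier that exchanges oxoglutarate for malate across the inner membrane, had 540.5, 810.3 and 1119 CPM at 0 min, 593, 716 and 1443 at 45 min, and 388, 492 and 688 at 24 h. The groups overlapped here too, with a difference of -0.67 ± 0.21 that was called and of -0.38 ± 0.14 that was not. Coq10a, a protein that binds coenzyme Q, stood at 232, 360.1 and 584 CPM at 0 min, 251, 308 and 783 at 45 min, and 142, 193 and 335 at 24 h, with -0.81 ± 0.24 and -0.46 ± 0.14, both called.

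Mtfp1, a protein of mitochondrial fission, had the lowest log2 fold change of this group. It had 117, 168 and 282 CPM at 0 min, 114, 143 and 413 at 45 min, and 59.6, 68.9 and 189 at 24 h. Every 24 h sample except replicate 4, at 189 CPM, lay below every 0 min sample, and the differences of -1.10 ± 0.28 and -0.73 ± 0.15 were called. Ndufaf3, an assembly factor of respiratory complex I, had 22.3, 34.4 and 68.3 CPM at 0 min, 19.2, 26.4 and 85.9 at 45 min, and 12.5, 18.5 and 39.2 at 24 h, and neither -0.90 ± 0.31 nor -0.45 ± 0.19 was called. Abcb8, an inner membrane transporter, was among the 3 members whose fold change shifted least with the number detected, from -0.58 ± 0.18 to -0.42 ± 0.16. Glrx5, needed for iron-sulfur clusters, and Letm1, an inner membrane protein of cation exchange, were called in both models, at -0.69 and -0.50 with time alone. Ppif (cyclophilin D of the permeability transition pore), Oxa1l (an insertase of the inner membrane), Slc25a29, Tmem177, Mrpl37 and Sars2 were called in neither, between -0.79 and -0.39 with time alone.

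Of the 17 members of other metabolism, 5 were called lower with time alone and 1, Ckb, at equal numbers detected, with medians of -0.74 and -0.33. Mdh1, the cytosolic malate dehydrogenase, works in the shuttle that Slc25a11 also serves. It had 1643, 2357 and 2807 CPM at 0 min, 1735, 2071 and 4096 at 45 min, and 1329, 1634 and 2319 at 24 h. The ranges of 0 min and 24 h overlapped, and neither -0.49 ± 0.19 nor -0.24 ± 0.12 was called. Pgam2, the muscle phosphoglycerate mutase of glycolysis, showed 473, 763 and 1688 CPM at 0 min, 502, 638 and 2228 at 45 min, and 282, 344 and 999 at 24 h. Its slope of -0.39 ± 0.047 per 1000 transcripts was steeper than the module's median, and neither -0.99 ± 0.34 with time alone nor -0.49 ± 0.18 was called.

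Ckb, the brain-type creatine kinase, had 34.4, 52.6 and 97.6 CPM at 0 min, 28.4, 46.4 and 122 at 45 min, and 18.9, 27.3 and 41.0 at 24 h. The ranges overlapped, and the differences of -0.94 ± 0.26 and -0.61 ± 0.18 were both called. Them6, of the thioesterase superfamily, had 14.0, 20.3 and 49.5 CPM at 0 min, 12.7, 15.3 and 72.1 at 45 min, and 5.58, 9.56 and 23.6 at 24 h, with -1.19 ± 0.37 called and -0.67 ± 0.24 not called. Plod1, a lysyl hydroxylase of collagen, had the smallest shift between models of all members. Its 92.8, 125 and 172 CPM at 0 min, 101, 153 and 203 at 45 min, and 76.1, 98.4 and 144 at 24 h overlapped at all time points, and -0.29 ± 0.16 and -0.15 ± 0.13 were not called. Tmem86a, Tecr (very long chain fatty acid synthesis) and Phkg1 (a subunit of phosphorylase kinase) were called with time alone, and Prdx2, Akr1b3, Acot7, Thrsp, Car14, Pxmp2, Nudt19, Smpd1 and Cyb5rl in neither model, between -0.90 and -0.39 with time alone.

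Of the 22 striated muscle transcripts, 6 were called lower with time alone and 7 at equal numbers detected, with medians of -0.73 and -0.35. Tmem38a, a cation channel of the sarcoplasmic reticulum, had 558, 786 and 1263 CPM at 0 min, 604, 703 and 1798 at 45 min, and 395, 541 and 838 at 24 h. The ranges overlapped, and its -0.55 ± 0.24 and -0.22 ± 0.14 were not called. Reep5, which shapes the membranes of the reticulum, had 379, 460.2 and 559.6 CPM at 0 min, 372, 421 and 714 at 45 min, and 252, 292 and 457 at 24 h. All 24 h samples except replicate 4 lay below those at 0 min, with -0.58 ± 0.15 and -0.38 ± 0.092, both called. Adprhl1, an ADP-ribosylhydrolase-like protein of heart muscle, stood at 429.9, 547 and 813 CPM at 0 min, 469, 599.9 and 895 at 45 min, and 308, 413 and 746 at 24 h, with -0.40 ± 0.17 and -0.20 ± 0.13, neither called.

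Fbxl22, an F-box protein of the sarcomere's Z disc, and Hopx, a homeodomain protein that binds no DNA and modulates serum response factor, had the lowest fold changes of the muscle group. Fbxl22 had 86.2, 124 and 273 CPM at 0 min, 54.5, 92.9 and 425 at 45 min, and 21.6, 33.5 and 128 at 24 h. Replicate 8 at 45 min was far above the others, and all 24 h samples but replicate 4 lay below the 0 min samples, with -1.67 ± 0.42 and -1.22 ± 0.25, both called. Hopx had 5.37, 7.19 and 16.3 CPM at 0 min, 6.46, 10.02 and 22.5 at 45 min, and 2.51, 3.83 and 5.88 at 24 h. Only replicate 4 at 24 h reached into the 0 min range, and -1.23 ± 0.28 and -0.95 ± 0.24 were both called. Trim7, Hspb3 (a small heat shock protein of muscle) and Dhrs7c (an enzyme of the sarcoplasmic reticulum) were also called in both models. The 2 transcripts of Asb10, a member of the SOCS box family, had -0.82 ± 0.30 and -0.71 ± 0.38, neither called, and r of 0.855 with each other. How reads in exons they share were counted is not given. Lrrc10, Sgca (alpha-sarcoglycan), Rpl3l (the muscle form of a ribosomal protein), Srpk3, Tcea3, Smarcd3, Asb2, Klhl30, Lims2, Hfe2 and Tmem109 were called in neither model.

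**Figure D4:**
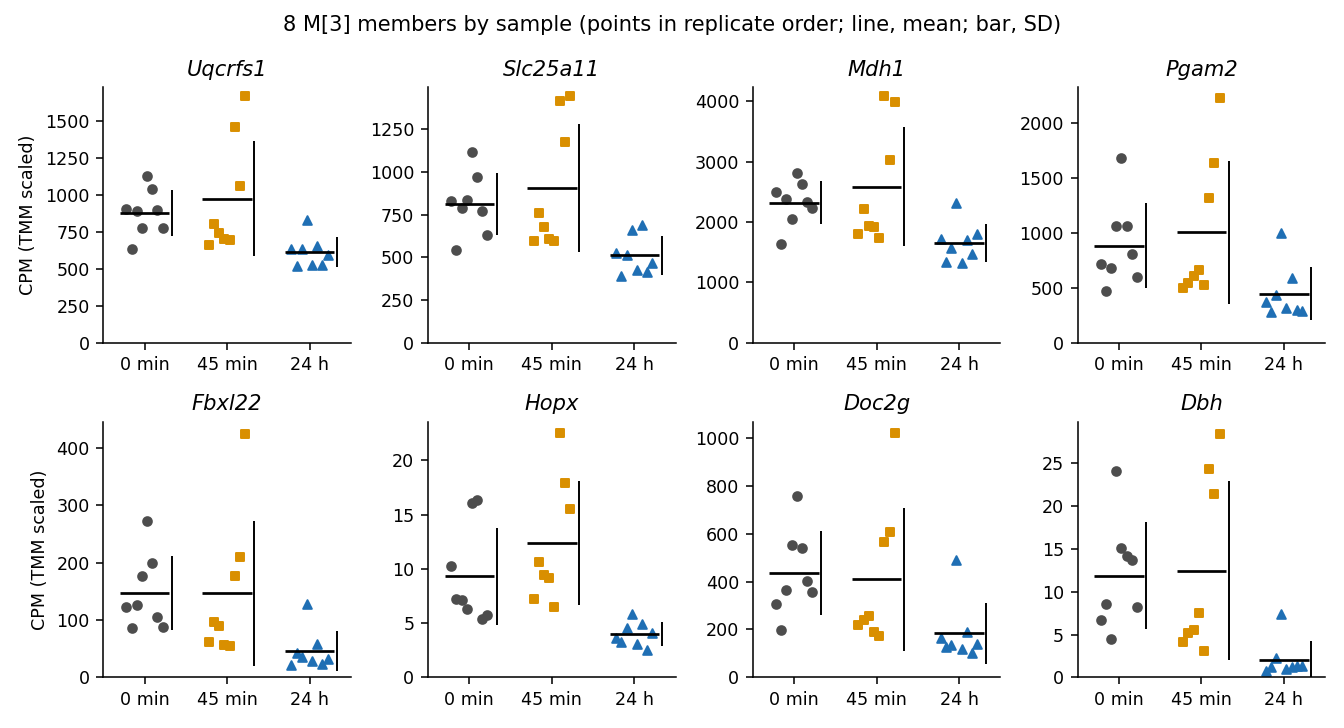
CPM of 8 M[3] members in each sample, with axes from 0, points in order of replicate number within a time point, a horizontal line at the mean and a vertical bar of 1 SD to each side, cut at 0. At 45 min, replicates 6, 7 and 8 were above the other 5 for all 8 genes, and at 24 h replicate 4 was the highest sample for all but Slc25a11, where replicate 6 was.

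The sequences upstream of the transcription starts were read from RefSeq (GRCm38.p6), where 74 symbols of the module had an entry, and the 250 bases before each start were searched on both strands. The MEF2 and CArG motifs, by which muscle factors bind DNA, were looked for because of the 22 muscle members. MEF2 was found in 9.46% of the members' windows and in 3.42% of all 27025 genes' windows, and the CArG box in 5.41% and 1.62%. These are 7 and 4 members. Further motifs were the E-box CANNTG (64.9% of members and 69.3% of all), the GATA motif AGATAA (8.11% and 11.4%), the TEAD motif GGAATG (17.6% and 14.4%), the ERR motif AAGGTCA (4.05% and 4.70%) and the TATA box TATAAA (10.8% and 14.3%), of which the last can overlap MEF2. The windows of the 4 members that are described above and hold a MEF2 or CArG match are given 5′ to 3′ in the sense of the gene, with the match in capitals.
Pgam2, chr11:5803797-5804046, minus strand: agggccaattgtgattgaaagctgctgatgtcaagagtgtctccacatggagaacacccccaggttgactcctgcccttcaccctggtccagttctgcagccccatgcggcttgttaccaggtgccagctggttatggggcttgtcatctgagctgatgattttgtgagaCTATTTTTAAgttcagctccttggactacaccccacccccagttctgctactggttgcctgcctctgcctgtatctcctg
Ckb, chr12:111672339-111672588, minus strand: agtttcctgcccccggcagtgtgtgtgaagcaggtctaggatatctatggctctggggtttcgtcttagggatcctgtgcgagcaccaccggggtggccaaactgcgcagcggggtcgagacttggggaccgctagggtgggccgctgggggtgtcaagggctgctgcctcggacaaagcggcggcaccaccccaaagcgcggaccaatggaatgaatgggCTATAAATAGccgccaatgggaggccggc
Fbxl22, chr9:66514594-66514843, minus strand: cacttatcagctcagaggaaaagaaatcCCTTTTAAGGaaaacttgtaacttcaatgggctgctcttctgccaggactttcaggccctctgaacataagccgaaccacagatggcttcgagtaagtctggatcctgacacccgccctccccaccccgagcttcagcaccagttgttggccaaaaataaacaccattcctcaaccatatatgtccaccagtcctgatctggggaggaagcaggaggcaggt
Hopx, chr5:77115124-77115373, minus strand: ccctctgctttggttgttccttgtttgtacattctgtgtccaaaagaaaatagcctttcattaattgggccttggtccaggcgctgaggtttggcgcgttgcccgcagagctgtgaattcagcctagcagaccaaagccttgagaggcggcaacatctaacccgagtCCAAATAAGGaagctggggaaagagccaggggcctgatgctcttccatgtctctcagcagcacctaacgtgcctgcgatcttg
The MEF2 match ended 70 bases before the start in Pgam2 and 19 before it in Ckb, and the CArG box 212 before it in Fbxl22 and 73 before the more upstream of both Hopx starts. A match is a description of the letters, and binding was not measured. MEF2 was also found in Gm826, Hspb3, Rpl3l, Srpk3 and Tcea3, and the CArG box in Asb2 and Ppif. The TATA box was found as well in the windows of Ckb, Gm826, Hspb3 and Srpk3, and the Ckb match itself holds TATAAA. The windows of Gm826, Rpl3l, Srpk3 and Ppif lay inside the span of their genes. The median G and C content of the windows was 56.6% in members and 52.0% in all genes.

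The 19 signalling, membrane and matrix transcripts were called lower in 11 cases with time alone and in 8 at equal numbers detected, with medians of -0.83 and -0.45. Dbh, the enzyme that makes noradrenaline from dopamine, had the lowest fold change of the module. It had 4.49, 11.1 and 24.1 CPM at 0 min, 3.11, 6.51 and 28.4 at 45 min, and 0.724, 1.29 and 7.35 at 24 h. Every 24 h sample other than replicate 4, at 7.35 CPM, lay below every 0 min sample, and -2.53 ± 0.52 and -1.99 ± 0.30 were both called. Ramp1, a partner of the receptor for calcitonin gene-related peptide, had 7.15, 16.3 and 27.9 CPM at 0 min, 3.44, 8.41 and 43.5 at 45 min, and 2.02, 4.29 and 13.3 at 24 h, with the largest shift between models of all members, from -1.74 ± 0.47 to -1.08 ± 0.29, both called. Lin7b, a scaffold protein of cell polarity, had 0.582, 1.04 and 1.66 CPM at 0 min, 0.245, 0.74 and 3.80 at 45 min, and 0, 0.16 and 0.691 at 24 h. It had few reads, with a mean of 12 counts at 0 min, and -2.27 ± 0.59 and -1.64 ± 0.43 were both called.

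Doc2g, a double C2 domain protein, had 198, 382 and 759 CPM at 0 min, 173, 248 and 1019 at 45 min, and 101, 137 and 491 at 24 h. Apart from replicate 4 at 24 h, the 24 h samples lay below those of 0 min, with -1.25 ± 0.38 and -0.73 ± 0.19, both called. Fkbp4, a co-chaperone of steroid receptors, showed the same order of samples, with 410.2, 579 and 813 CPM at 0 min, 460.1, 522 and 1264 at 45 min, and 252, 286 and 663 at 24 h and differences of -0.76 ± 0.23 and -0.44 ± 0.11, both called. Ifngr2, a chain of the interferon gamma receptor, stood at 255, 389 and 518 CPM at 0 min, 299, 324 and 733 at 45 min, and 173, 185 and 326 at 24 h. Its ranges at 0 min and 24 h overlapped, and -0.87 ± 0.20 and -0.55 ± 0.11 were both called. Retnla, of the resistin-like proteins, and Tmem204, a membrane protein of endothelium, were called in both models, and Rhob (a small GTPase), Vstm4 and Smoc2 (a matrix protein) with time alone. Metrn (-1.45), Pdzd3, Rhbdl1, H2-Aa (a class II histocompatibility chain), Cyr61 (a matricellular protein), Apba3, Igfals and Rgcc were called in neither model.

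Among the 19 other or little known members, 11 were called lower with time alone and 9 at equal numbers detected, with medians of -0.96 and -0.56. AK041267 (uc009kdm.1), a transcript without a gene symbol, had 31.2, 55.2 and 101 CPM at 0 min, 30.1, 39.8 and 177 at 45 min, and 5.75, 7.26 and 60.5 at 24 h. Replicate 4 at 24 h was far above the other 7, which lay below all 0 min samples, and -2.11 ± 0.49 and -1.72 ± 0.29 were both called. Fam78a, of little known function, had 10.9, 14.7 and 26.7 CPM at 0 min, 8.43, 11.3 and 34.6 at 45 min, and 2.82, 3.97 and 10.7 at 24 h, with -1.72 ± 0.31 and -1.36 ± 0.20, both called. It was, with Tmem204, 1 of 2 members whose 24 h samples all lay below all 0 min samples (0.649% of all transcripts), and without replicate 4 at 24 h there were 28 (1.4% of all transcripts).

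Tuba8, an alpha tubulin, had 199, 337 and 662 CPM at 0 min, 175, 356 and 715 at 45 min, and 110.1, 138 and 414 at 24 h, with -1.06 ± 0.30 and -0.71 ± 0.20, both called. Rbm38, an RNA-binding protein, had 158, 288 and 613 CPM at 0 min, 202, 309 and 690.4 at 45 min, and 146, 184 and 378 at 24 h, with -0.61 ± 0.27 and -0.28 ± 0.20, neither called. Its 0 min and 24 h ranges overlapped, as did those of Fam131a, at 37.3, 61.3 and 76.6 CPM at 0 min, 32.1, 46.5 and 102 at 45 min, and 22.7, 26.3 and 55.1 at 24 h, through replicate 4 alone. The differences of Fam131a were -0.99 ± 0.24 and -0.65 ± 0.14, both called. Lrrc27, a leucine-rich repeat protein, was called in neither model and had a large shift, from -1.18 ± 0.41 to -0.59 ± 0.20. Prss55, Dnaic1, Gm5860 and AK085995 were called in both models and 2310039L15Rik with time alone, and 1810034E14Rik, Fopnl, D630003M21Rik, Gm826, AK087181 and Gm13375 in neither. Cxx1a and Cxx1b are near-identical neighbours on the X chromosome whose counts may be affected by reads that fit both. They had r of 0.949 with each other and -0.54 ± 0.17 and -0.63 ± 0.18 with time alone, both called, and Cxx1b alone was called at equal numbers detected, although the difference between them was not tested.

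The members with a position in RefSeq, 88 of 91, lay on 20 chromosomes, with at most 8 on any of them. The transcripts of their genes, taken as the longest coding one in GENCODE M21, had a median length of 1923 bases (quartiles 1424 and 2452) and a G and C content of 54.8%. The other modules with lower levels at 24 h had 2524 bases and 53.1% in M[2] and 4078 bases and 48.4% in M[4], and all coding genes 2681 bases and 49.1%. The median slope with the number detected was -0.26 in M[3], -0.094 in M[2] and 0.072 in M[4], and the slope was called negative in 91 of 91, 109 of 201 and 0 of 77 tested transcripts. In M[6] and M[1] it was -0.17 in both, called negative in 35 of 56 and 15 of 27. M[5], M[7], M[8] and M[9] had medians of -0.069, 0.055, 0.11 and 0.14. The median log2 fold change at 24 h went from -0.75 to -0.41 in M[3] with the number detected in the model, from -0.63 to -0.48 in M[2] and from -0.70 to -0.81 in M[4].

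**Figure D5:**
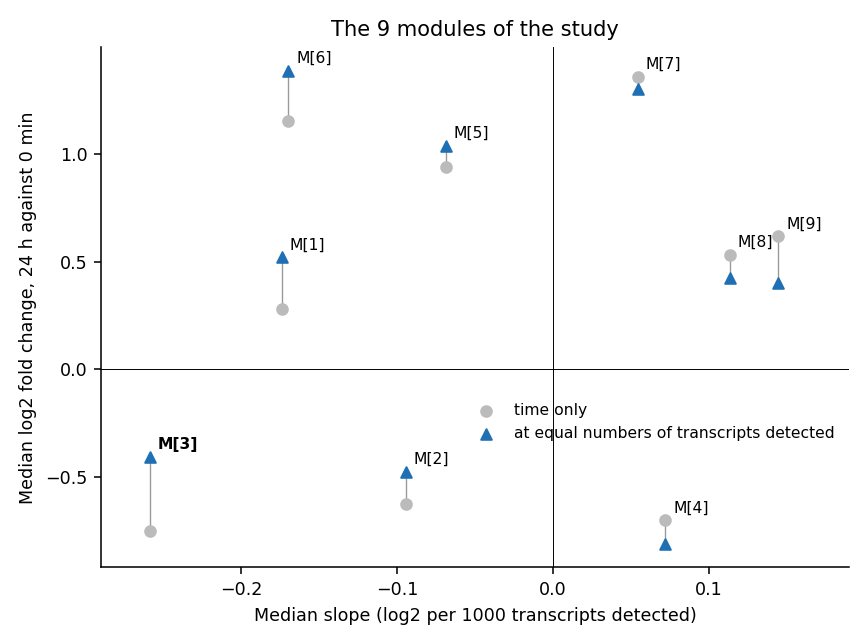
The 9 modules of the study by their median slope with the number of transcripts detected (horizontal, log2 per 1000 transcripts) and their median log2 fold change at 24 h against 0 min (vertical), with time alone (grey circles) and at equal numbers detected (blue triangles). M[3] has the lowest slope, -0.26, and its median moves from -0.75 to -0.41.

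Mitochondrial and muscle transcripts outside the module were taken from the study's table of changed transcripts, so that they too were selected on these samples. Of 54 mitochondrial ones, 20 were called lower and 7 higher at 24 h (4.44% of all transcripts were called higher), with a median of -0.36 with time alone and -0.25 at equal numbers detected, and a median slope of -0.068. Of 35 striated muscle ones, 18 were called lower and 5 higher, with medians of -0.49 and -0.52 and a median slope of -0.013.

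Markers of the heart's cell types moved with time as well, and in bulk tissue fewer cells of a type and less RNA per cell cannot be told apart. Only transcripts in the study's table of changed transcripts have a symbol, so the markers used were themselves selected for a change over time in these samples. The 7 cardiomyocyte markers with a symbol (of 16) summed to 16567 to 23531 CPM at 0 min, 17728 to 29266 at 45 min and 6903 to 11957 at 24 h, without overlap between 24 h and the others. None was at 0 in a sample. Actc1, cardiac actin, carried most of this sum and was called lower (-1.38 ± 0.18), as were Mybpc3 and Kcnj11, while Actn2, Hrc and Lmod2 lay between -0.39 and -0.20 and a Tpm1 transcript at 0.17, none of them called, with a median of -0.39 over the 7.

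The sum of 6 neutrophil markers (of 10) was 2.74 to 15.3 CPM at 0 min, 5.75 to 32.9 at 45 min and 98.5 to 550.2 at 24 h, and all 6 were called higher at 24 h. The 12 macrophage and monocyte markers (of 16) went from 120.4 to 189 CPM at 0 min to 162 to 487 at 24 h, with 10 called higher and 0 with a negative fold change. The 6 mesothelial markers (of 9) went from 4.70 to 12.4 CPM to 40.1 to 116, with 5 called higher. Fibroblast and endothelial markers were mixed. The 9 fibroblast markers (of 13) summed to 781 to 1196 CPM at 0 min and 912 to 1929.5 at 24 h, with 5 called higher and 2, Fmod (-1.64) and Col14a1 (-0.81), called lower. The 11 endothelial markers (of 16) summed to 686 to 838 CPM and 483 to 672, with Plxnd1, Aplnr, Pcdh12 and Bcl6b called lower (-1.09 to -0.64), Selp, Sele, Thbd and Clec14a called higher (0.42 to 4.05) and a median of 0.092.

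The 5 adipocyte markers (of 8, the member Thrsp among them) summed to 109 to 158 and 136 to 192 CPM, with 2 called higher. The markers of antigen presentation, Cd74 and the member H2-Aa, summed to 14.4 to 53.9 CPM at 0 min and 7.69 to 28.4 at 24 h, and Cd74 was called lower. The median slope per 1000 transcripts detected was -0.26 for the members and -0.26 for the 2 markers of antigen presentation, of which H2-Aa is itself a member. For the 6 neutrophil markers the median was -0.25, with slopes from -0.58 (Cd177) to 0.21 (Cxcr2) and 3 called negative. The median was -0.098 for mesothelium, -0.042 for cardiomyocytes, 0.0074 for endothelium, 0.055 for fibroblasts, 0.062 for adipocytes and 0.063 for macrophages and monocytes. For the sums of the markers, the slope was -0.25 in antigen presentation, -0.15 in neutrophils and -0.086 in cardiomyocytes. It was -0.055 in macrophages and monocytes, -0.049 in mesothelium, -0.0026 in endothelium, 0.0033 in adipocytes and 0.070 in fibroblasts. The part of cell composition, of the scale factors and of the number detected itself in the lower level at 24 h was not tested.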

How the data were processed

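Raw counts were deposited by the authors as whole numbers per UCSC transcript for 24 libraries. Per the submitters' processing notes and the methods, reads from a directional single-end library kit were trimmed with cutadapt 1.9.1, mapped to mm10 with TopHat2 2.1.0 and Bowtie2 2.2.9, and counted with HTSeq 0.6.0. The counting mode, strand setting and transcript release are not given in the sources used here. How reads of overlapping, antisense or near-identical genes were counted is therefore not known. Symbols and modules were those of the study's table of modules, and 1 row without an identifier was left out.

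The tests used edgeR 4.0.16 (R 4.3.3). Transcripts were kept by filterByExpr (minimum count 10, minimum total 15), scaled by TMM and fitted by quasi-likelihood to all 24 samples, with time alone or with time and the centred number of transcripts detected per 1000. Benjamini-Hochberg adjustment was made over all 8940 transcripts, with a threshold of 0.05. The fits were also run on simulated counts with the number detected kept as observed, so its link to the counts was not tested. A standard error is the absolute log2 fold change over the root of the F statistic. The CPM are TMM scaled, with 0.5 added before log2. Alternatives were other scale factors, filters, DESeq2 1.42.0, limma-voom (limma 3.58.1), thinned libraries, other covariates, a replicate block and omission of each sample. Numbers detected were compared by exact permutation of samples (12870 splits, smallest possible p 0.000155). Descriptions and plots were made with Python 3.11.15.

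The members, their grouping by function, the marker lists, and the lists of mitochondrial and striated muscle genes outside the module were chosen with earlier results of these data known. Genes described in full were, in each functional group, the 3 with the highest mean CPM and the 2 others with the largest fall at 24 h with at least 10 counts at 0 min, then the 3 with the smallest and the largest shift between models, the 3 with the lowest r, and Asb10, Cxx1a and Cxx1b. Other genes with values, such as Rgcc, Tmem109 and Metrn, were named after their values had been seen. Counts of samples of a time point differed by more than sampling noise in every pair. P-values measure the spread between mice as sampled.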

Additional observations from a re-analysis of the deposited data

Results flagged for a closer look

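In each time point, the highest or lowest of the 8 samples was set against the others by Dixon's ratio, for the module's level, the number of transcripts detected and the genes described in full. Chance alone sets apart about 1 in 20 groups, and the quantities are not independent. Of 102 groups, 25 held a sample set apart, and in 20 of these it was replicate 4 at 24 h. That sample had a module level of 0.26, where the next highest at 24 h was -0.44. It was also set apart as the highest at 24 h for Mdh1 (2319 CPM), Pgam2 (999 CPM), Uqcrfs1 (830.5 CPM), Adprhl1 (746 CPM), Fkbp4 (663 CPM), Doc2g (491 CPM), Reep5 (457 CPM), Tuba8 (414 CPM) and Rbm38 (378 CPM). The same held for Mtfp1 (189 CPM), Fbxl22 (128 CPM), AK041267 (60.5 CPM), Fam131a (55.1 CPM), Ndufaf3 (39.2 CPM), Them6 (23.6 CPM), Lrrc27 (15.6 CPM), Ramp1 (13.3 CPM), Fam78a (10.7 CPM) and Dbh (7.35 CPM). Replicate 5 at 0 min was set apart as the highest for Ckb (97.6 CPM) and Fam78a (26.7 CPM). Replicate 8 at 45 min was set apart as the highest for Fbxl22 (425 CPM) and AK085995 (15.2 CPM). Replicate 8 at 24 h was set apart as the lowest for Abcb8 (6.56 CPM).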

How the results depend on the processing

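None of the 6 results turned its direction under an alternative. Scale factors by RLE or upper quartile, DESeq2, limma-voom, a mean of at least 50 counts and thinning to the smallest total moved the numbers of members called lower at 24 h (39 with time alone, 29 at equal numbers detected) and their medians by no more than 1.5 times. With no filter on low counts, which adds transcripts to the adjustment, the numbers were 23 and 17 (188 and 338 of all 27661 transcripts). With only the 0 min and 24 h samples, 16 were called at equal numbers detected (219 of all 8474) and 53 of the slopes. Library totals with no scale factor, added after seeing the data, gave 24 and 16 (121 and 222 of all 8940), and 72 slopes (1536 of all 8940). There the median of all transcripts moved to 0.19 with time alone. Without the 3 samples at 45 min with few transcripts, also added, 72 were called with time alone. In the samples with at least 15000 transcripts, also added, 44 slopes were called. The number of transcripts with at least 10 counts as covariate gave 10, and a slope for each time point gave 8. The share of the 20 most abundant transcripts as covariate gave 76, a median of -0.873 and 0 slopes. The cause of these moves was not tested. Leaving out 1 sample at a time gave 15 to 67 members with time alone (over 1.5 times from 39 in 12 of 24 fits), 18 to 37 at equal numbers detected, 90 to 91 slopes, and medians of -0.951 to -0.623 and of -0.486 to -0.352. The difference in transcripts detected between 24 h and 0 min was 1109.7 to 1699 (adjusted exact permutation p of 0.0326 to 0.182), and passed the threshold without replicate 2 at 0 min or replicate 4 at 24 h. For transcripts with at least 10 counts it was 535 (adjusted exact permutation p = 0.0354).

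Replicate numbers are shared between time points but come from different mice. Of 24 same-numbered pairs, 13 had a correlation over 0.1 (range -0.541 to 0.583), and 6 of 24 samples correlated best with their own number. Whether the numbers follow a library pool or a day of surgery cannot be told from this, because neither was known for each sample. With the replicate block, 32 members were called lower with time alone (263 of all 8940 transcripts) and 21 at equal numbers detected (773 of all 8940). The medians were -0.737 and -0.279, and 91 slopes were called (2457 of all 8940).

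Library totals ran from 9887957 to 14091629 counts, and the TMM factors from 0.717 (45 min, replicate 1) to 1.30 (24 h, replicate 7). In at least 1 sample, 5 members had under 10 counts, and Lin7b was at 0 in a 24 h sample. The number detected is a property of the same counts, so that the separation of time from it is a description of these 24 libraries.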
